A study of Arabidopsis thaliana with 8 samples.

Results

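Of the 33602 loci counted in Arabidopsis thaliana primary roots, 1181 kept a nearly level share of the library in all 8 libraries, whether the shoots were lit or dark and whether the seedlings were 7 or 4 days old. They were chosen by their measured values. Counts were scaled by the library total to CPM, the count a locus would have in a library of 1e+06 counts, and a nuclear locus was kept when its mean over the 8 libraries was at least 20 CPM and its highest library was at most 1.4 times its lowest. Of the 33323 nuclear loci, 9111 reached 20 CPM, and 1181 of those (13.0%) met the limit on spread. Because the rule used every library, the levels of these genes are given as a description, with no test.

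All 8 libraries came from wild-type Col-0 seedlings on vertical plates of sucrose-free medium at 21 ± 2 °C, after 2 days of cold treatment. With lit shoots, white light of 130 µmol fell on the shoots for 16 h a day, with 8 h of dark, in a D-Root device that shades the roots. In the dark, aluminium foil covered the whole plate, so that shoot and root were both unlit. Each of the 4 groups (lit shoots at 7 days, lit shoots at 4 days, dark at 7 days, dark at 4 days) held 2 independent samples of about 70 pooled seedlings. The medium held no sugar, so that light and the sugar that lit shoots make cannot be told apart here. Ribosomal RNA was depleted and total RNA sequenced.

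Library totals ran from 25326045 to 30555290 counts. Organelle loci took 4.15% to 7.91% of the counts in roots of lit shoots and 5.57% to 11.4% in dark roots, and replicate libraries correlated across loci at 0.98 to 0.987 in log2 CPM, where loci are not independent replicates. All 10 root marker genes checked were detected, with sums of 212 to 380 CPM in roots of lit shoots and 122 to 283 CPM in dark roots. The 10 shoot marker genes summed to at most 0.70 CPM in roots of lit shoots and 0.47 CPM in dark roots, and 2 of them, MUTE and FMA, had no count in any library. In whole roots, fewer cells of a type and less RNA per cell cannot be told apart, and CPM measures a share of the library, not molecules per root.

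A gene with a level share of the transcriptome is useful as a reference, because measured changes in other genes are read against it. Genes of this kind are commonly sought among housekeeping functions such as membrane traffic, protein turnover, phosphatases, chromatin upkeep and the cytoskeleton, which every root cell uses. Membrane traffic moves proteins between the endoplasmic reticulum, Golgi, vacuole and plasma membrane by coats that shape vesicles, SNARE proteins that fuse them and tethers such as the exocyst that dock them. In roots this traffic places auxin carriers, wall-building enzymes and nutrient transporters at the cell surface.

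The promoters of the 3 named genes of smallest spread are shown because, among stable genes with a symbol, their levels moved least. Each line gives the 250 bases before the annotated gene start, read 5′ to 3′ on the gene's own strand from the RefSeq TAIR10.1 genome. YKT61 lies upstream at chr5:23497889-23498138 (plus strand), RFO1 at chr1:29979357-29979606 (minus strand) and GN at chr1:4788213-4788462 (plus strand). Capitals mark matches to any of 4 short motifs on either strand: the TATA box (TATAAA), the G-box (CACGTG) bound by light-signalling factors, the site II element (TGGGCC) of growth-related promoters and the telo-box (AAACCCTA) of translation-related promoters.
YKT61: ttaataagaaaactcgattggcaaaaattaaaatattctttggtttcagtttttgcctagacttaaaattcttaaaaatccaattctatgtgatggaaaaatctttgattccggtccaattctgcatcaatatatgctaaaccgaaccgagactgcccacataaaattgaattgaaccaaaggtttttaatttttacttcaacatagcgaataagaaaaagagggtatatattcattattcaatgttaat
RFO1: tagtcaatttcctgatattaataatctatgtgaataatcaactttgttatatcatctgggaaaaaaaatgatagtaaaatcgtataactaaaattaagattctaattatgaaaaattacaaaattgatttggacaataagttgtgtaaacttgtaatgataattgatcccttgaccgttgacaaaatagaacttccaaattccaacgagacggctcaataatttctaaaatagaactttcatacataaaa
GN: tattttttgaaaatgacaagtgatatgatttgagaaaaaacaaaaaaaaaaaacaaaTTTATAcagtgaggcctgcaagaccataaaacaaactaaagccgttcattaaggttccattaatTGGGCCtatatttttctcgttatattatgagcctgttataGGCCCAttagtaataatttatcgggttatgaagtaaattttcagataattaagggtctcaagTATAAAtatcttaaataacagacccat
The YKT61 and RFO1 windows held none of the 4 motifs. The GN window held a TATA box 27 bases before the start, another on the opposite strand 193 bases before it, and site II elements 129 and 89 bases before it on opposite strands. No match says only that these letters are not in this window.

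Over all 1181 stable genes a TATA box occurred in 46.5% of such windows, against 47.7% of the 7930 loci that reached 20 CPM but were not stable and 45.8% of all annotated nuclear loci. Site II elements occurred in 19.2% of the stable genes' windows, against 16.9% and 12.3% in those 2 sets. A G-box occurred in 5.42% of the stable genes' windows, against 7.97% and 5.83%. The telo-box occurred in 3.73%, against 3.29% and 4.75%. No motif contains another, and these shares are descriptions of the windows.

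Spread among the stable genes ran from a highest-to-lowest ratio of 1.081 to 1.4, with a median of 1.299, while the median over all loci at 20 CPM or more was 2.07. Only 7 genes stayed within 1.1 and 141 lay between 1.1 and 1.2, then 452 between 1.2 and 1.3 and 581 between 1.3 and 1.4. Just past the limit, 607 loci lay between 1.4 and 1.5, so that the limit falls on a slope and not in a gap. The genes just inside it were IRX9-L at 1.399, EMB2753 and CLPP6, which round to 1.4, and those just outside were EMB2754 at 1.401, VIK at 1.402 and FRA1 at 1.402. The lowest count of any stable gene in any library was 427, which carries a counting error of 4.84%, and the counting error at the median gene's lowest library was 2.89%. These values cover counting error only.

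**Figure D1:**
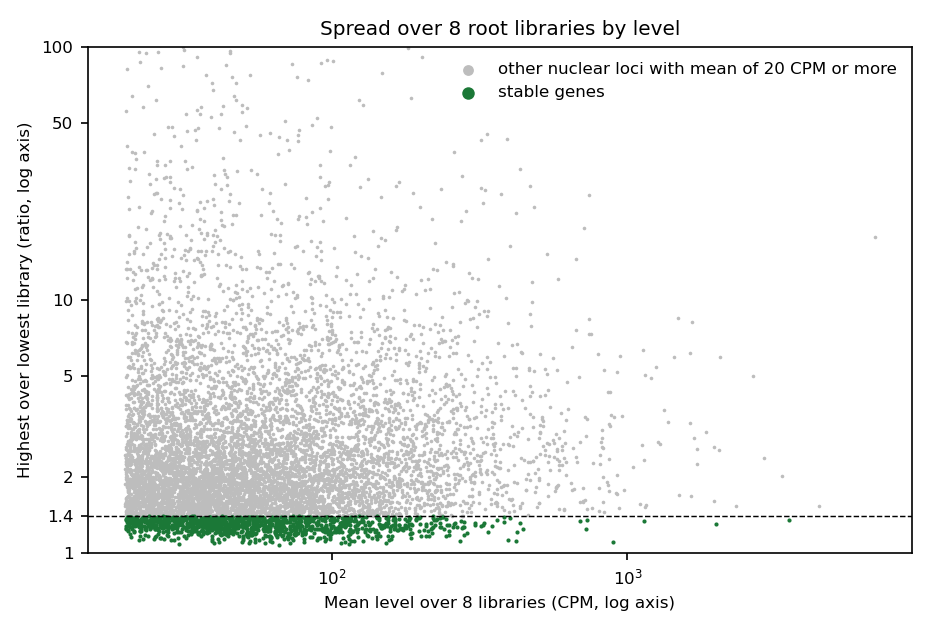
Highest-to-lowest library ratio (vertical log axis) against mean CPM over 8 libraries (horizontal log axis) for nuclear loci with a mean of 20 CPM or more, with the 1181 stable genes in green and the limit of 1.4 dashed. Stable genes occur at most levels but thin out at high means, and 84 loci with a ratio over 100 and 16 with a library at 0 are not drawn.

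The level itself set stable genes apart little. Their median was 52.0 CPM, against 51.2 CPM for the other loci that reached 20 CPM. By level, 11.5% of loci between 20 and 30 CPM were stable, and 14.4% of those between 50 and 100 CPM. Above 300 CPM the share was 5.99% (23 of 384 loci). Together the stable genes took 9.33% to 9.66% of the counts in roots of lit shoots and 9.31% to 9.84% in dark roots.

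The 12 named genes of smallest spread hold several parts of the membrane traffic machinery. YKT61 (AT5G58060, chr5:23498139-23500384), a SNARE of the endomembrane system, had 67.3 and 66.4 CPM in roots of lit shoots at 7 days, 65.1 and 67.4 CPM at 4 days, 68.7 and 68.7 CPM in dark roots at 7 days and 63.5 and 64.0 CPM at 4 days. The lit and dark ranges overlapped, and dark roots held both the highest and the lowest libraries. The YKT61 value is uncertain, since 32.3% of its exonic 31-base words occur in other loci and 14.4% of its length overlaps a locus on the opposite strand. GN (AT1G13980, chr1:4788463-4794654), the ARF exchange factor that recycles auxin carriers to the plasma membrane, had 153 and 157 CPM in roots of lit shoots at 7 days, 155 and 146 CPM at 4 days, 148 and 161 CPM in dark roots at 7 days and 148 and 154 CPM at 4 days. The dark 7-day pair of GN spanned most of its range, and the 4 groups overlapped.

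EXO70A1 (AT5G03540, chr5:889385-894205) encodes the exocyst subunit that binds the target membrane. It had 113 and 111 CPM in roots of lit shoots at 7 days, 106 and 109 CPM at 4 days, 110 and 114 CPM in dark roots at 7 days and 116 and 105 CPM at 4 days. Its highest and lowest libraries were the 2 replicates of dark roots at 4 days. GC6 (AT3G27530, chr3:10193477-10200046), a golgin that tethers vesicles at the Golgi, had 120 and 128 CPM in roots of lit shoots at 7 days, 131 and 126 CPM at 4 days, 131 and 131 CPM in dark roots at 7 days and 120 and 134 CPM at 4 days. Its lowest library, a 7-day lit one, and its lowest dark library differed by under 1 CPM.

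Signalling and cell cycle genes stood beside them. CDC2 (AT3G48750, chr3:18071454-18074641) encodes the cyclin-dependent kinase CDKA, which acts at both entry points of the cell cycle. It had 58.4 and 60.2 CPM in roots of lit shoots at 7 days, 59.2 and 56.8 CPM at 4 days, 59.2 and 62.6 CPM in dark roots at 7 days and 59.1 and 60.8 CPM at 4 days. All 4 groups of CDC2 overlapped with at least 1 other group. LST8-1 (AT3G18140, chr3:6212585-6214804), a WD40 partner of the growth kinase TOR, had 42.1 and 44.5 CPM in roots of lit shoots at 7 days, 40.4 and 42.4 CPM at 4 days, 40.1 and 40.7 CPM in dark roots at 7 days and 41.0 and 40.5 CPM at 4 days. The 7-day lit libraries of LST8-1 lay above all 4 dark libraries, by a margin smaller than the gap between those 2 libraries. RFO1 (AT1G79670, chr1:29976725-29979356), a wall-associated receptor kinase known for resistance to Fusarium wilt, had 71.6 and 70.1 CPM in roots of lit shoots at 7 days, 73.2 and 69.3 CPM at 4 days, 76.0 and 73.4 CPM in dark roots at 7 days and 69.8 and 73.9 CPM at 4 days. Its highest library was a dark 7-day one and its lowest a lit 4-day one, and the lit and dark ranges overlapped.

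The other 5 of the 12 cover stress sensing, actin and lipid or cofactor metabolism. IRE1-1, a sensor of unfolded proteins in the endoplasmic reticulum, ranged from 51.6 to 55.9 CPM in roots of lit shoots and from 51.5 to 57.2 CPM in dark roots. GRL, a subunit of the SCAR/WAVE complex that starts actin branches, ranged from 93.2 to 99.5 CPM with lit shoots and from 88.9 to 97.1 CPM in the dark. LACS4, a long-chain acyl-CoA synthetase, ranged from 373 to 416 CPM with lit shoots and from 379 to 421 CPM in the dark. HCS1, which attaches biotin to carboxylases, and FCLY, which breaks down farnesylcysteine, had ratios of 1.12 and 1.13.

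**Figure D2:**
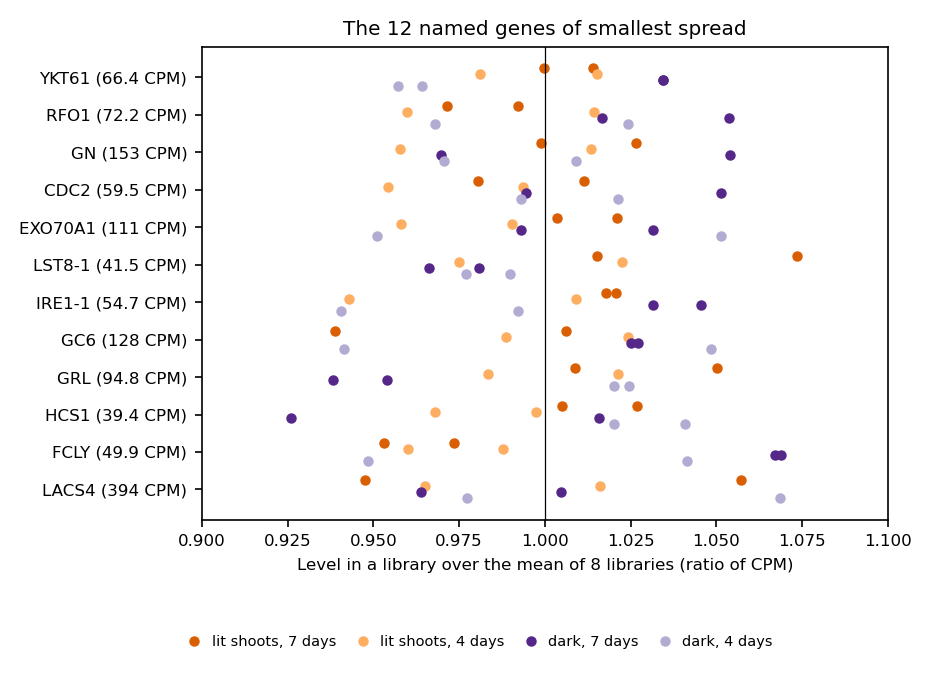
Level of each of the 12 named genes of smallest spread in each library, divided by the gene's mean over 8 libraries (horizontal axis), with lit shoots in orange and dark in purple and the mean CPM beside each name. On library totals, which chose these genes, no library lies more than 8% from its gene's mean, and the colours of the 4 groups interleave for most genes.

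The named stable genes of highest level included GLT1, GSTU19, ACT2, PAB2 and XIK. GLT1 (AT5G53460, chr5:21700187-21710296), the NADH-dependent glutamate synthase that assimilates ammonium in roots, had 4187 and 3351 CPM in roots of lit shoots at 7 days, 3496 and 3802 CPM at 4 days, 3079 and 3610 CPM in dark roots at 7 days and 3300.4 and 3268 CPM at 4 days. Its replicate libraries at 7 days with lit shoots differed by more than any 2 of its group means. Per kilobase of exon GLT1 averaged 461 RPKM, and the glutathione S-transferase gene GSTU19 averaged 1779 RPKM at 1993 CPM, so that on the length-corrected scale GSTU19 was the more abundant. PAB2, a poly(A)-binding protein, averaged 745 ± 16.5 and 767 ± 7.27 CPM with lit shoots at 7 and 4 days, against 758 ± 10.3 and 635 ± 27.1 CPM in dark roots at 7 and 4 days (SD, n = 2 each), with the dark 4-day pair lowest. The myosin XIK, which drives organelle movement along actin, ranged from 393 to 431 CPM with lit shoots and from 414 to 519 CPM in the dark. Under the TMM library sizes described below, XIK went over the limit, at a ratio of 1.50.

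Within the limit set by the rule, the levels of the stable genes varied as follows, as a description of the libraries that chose them. The mean log2 CPM with lit shoots minus that in the dark ran from -0.40 to 0.36 with a median of -0.01, and 554 genes lay above 0 and 627 below. The 7-day minus 4-day difference ran from -0.36 to 0.34 with a median of 0.04. The median gene had replicates 0.08 apart in log2, against 0.13 for all loci at 20 CPM or more. Group membership accounted for a median of 77.3% of a stable gene's log2 variance, against 94.6% for all loci at that level; 4 groups of 2 libraries give 42.9% on average where groups do not differ. The highest library of a stable gene was most often one of dark roots at 7 days (246 and 264 genes for the 2 replicates). The lowest was most often the first 7-day lit library (268 genes) or one of the 4-day dark libraries (208 and 195 genes), and these 3 libraries had the largest organelle shares, 7.91%, 9.65% and 11.4% of counts. The part of the organelle share in this order was not tested. When organelle counts were left out of the totals 1094 of the 1181 genes remained within the limit, a count that does not give the order of libraries.

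Which genes counted as stable depended on the scale. With TMM effective library sizes, which align the bulk of genes between libraries, 1089 loci met the same limits, and 695 of them were among the 1181, which is 58.9% of the stable genes and 63.8% of the TMM set. All 486 stable genes that passed the limit under TMM sizes were lower with lit shoots on that scale, with a median log2 difference of -0.32. Of the 394 loci that were level only under TMM sizes, 392 were higher with lit shoots on library totals, with a median of 0.31. Library totals and TMM sizes placed the median of all tested genes 0.20 apart in log2 for light at 4 days and 0.17 apart at 7 days. The 1181 genes were thus chosen as level relative to the whole library. Relative to the bulk of genes 695 of them were also within the limit and 486 were over it. A set of 654 stable genes (55.4%) kept within 1.4 under library totals, totals without organelle loci, TMM sizes and DESeq2 size factors.

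Among the leading genes of that set were genes of membrane traffic and protein turnover, named after their values were seen. AT3G16270, annotated as an ENTH/VHS protein of the kind that binds clathrin-coated vesicles, had 97.3 and 97.3 CPM in roots of lit shoots at 7 days, 102 and 101 CPM at 4 days, 89.6 and 97.5 CPM in dark roots at 7 days and 90.2 and 90.0 CPM at 4 days. AT3G08530, a clathrin heavy chain (CHC2, chr3:2586804-2595654), had 899 and 935 CPM in roots of lit shoots at 7 days, 899 and 904 CPM at 4 days, 884 and 906 CPM in dark roots at 7 days and 847 and 884 CPM at 4 days. Its ratio was 1.104 on library totals and at most 1.151 under the 4 scalings. UFD1, which extracts ubiquitinated proteins together with CDC48, had a ratio of at most 1.153 under the 4. The adaptin AT4G23460, LST8-1, the splicing regulator PTB3 and the RNA-binding protein PUM4 were also near the top, with largest ratios of 1.16 to 1.18.

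**Figure D3:**
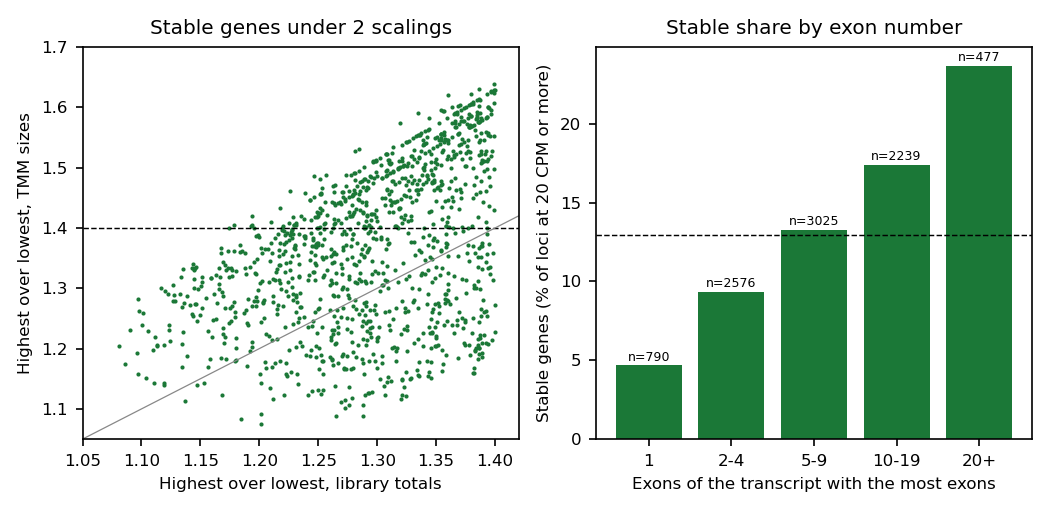
Left, highest-to-lowest ratio of each of the 1181 stable genes under library totals (horizontal) and under TMM effective sizes (vertical), with the limit of 1.4 dashed and equality as a grey line; 486 genes lie above the limit under TMM. Right, stable share of loci at 20 CPM or more by exon number, with the share over all such loci dashed; it rises from 4.68% at 1 exon to 23.7% at 20 or more.

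One edgeR quasi-likelihood fit with TMM scaling tested 20936 loci for lit shoots against dark at each age and for 7 against 4 days in each condition, and the comparisons share libraries. The fit called 57.1% of all loci for light at 4 days, and 276 of the 1181 stable genes, all lower with lit shoots, where 26.6% of all loci were lower and 30.5% higher. For light at 7 days it called 69.0% of all loci (32.8% lower, 36.2% higher) and 491 stable genes, again all lower. No stable gene was called higher at either age by edgeR with Benjamini-Hochberg adjustment, 1 and 2 were higher at an unadjusted p below 0.05, and DESeq2 called 0 higher and 240 and 455 lower. When edgeR used library totals alone, it called 93 stable genes higher and 31 lower at 4 days and 52 higher and 178 lower at 7 days. For age the fit called 31.6% of all loci in the dark (13.3% higher and 18.3% lower at 7 days) and 48 stable genes (29 higher and 19 lower), and 4.23% of all loci with lit shoots and 1 stable gene. The light by age interaction was called for 14.6% of all loci and 8 stable genes. With a library left out, the stable genes called for light numbered 57 to 455 at 4 days (57 and 100 without a 4-day lit library, 454 and 455 without a 7-day dark one) and 328 to 493 at 7 days. For age in the dark they numbered 2 to 67 (2 without the first 7-day dark library, 8 without either 4-day lit library). Since the rule used the same libraries, nothing is read from these counts beyond their values.

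Genes in common use as references for quantitative PCR in this plant were set against the same limits. Of 34 such genes from textbook use, 32 reached 20 CPM and 9 were stable (28.1%, beside 13.0% of all loci at that level). The count was 10 under TMM sizes. AT5G46630, the medium chain of the AP-2 clathrin adaptor, was the most level, with 116 and 127 CPM in roots of lit shoots at 7 days, 122 and 134 CPM at 4 days, 118 and 125 CPM in dark roots at 7 days and 126 and 116 CPM at 4 days. UBC9, a ubiquitin-conjugating enzyme, had 108 and 108 CPM in roots of lit shoots at 7 days, 99.9 and 99.4 CPM at 4 days, 88.4 and 92.3 CPM in dark roots at 7 days and 101 and 88.8 CPM at 4 days. The 7-day pairs of UBC9 did not overlap between lit shoots and dark, while its 4-day pairs did. PEX4, the ubiquitin-conjugating enzyme of peroxisomes, had 26.7 to 30.1 CPM in roots of lit shoots and 24.8 to 26.7 CPM in dark roots, and 15.3% of its 31-base words occur elsewhere.

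The TIP41-like gene AT4G34270, a partner of phosphatase signalling below TOR, had 34.0 and 33.6 CPM in roots of lit shoots at 7 days, 38.2 and 37.8 CPM at 4 days, 36.1 and 34.98 CPM in dark roots at 7 days and 36.3 and 29.7 CPM at 4 days. Its spread rested on the second dark 4-day library. ACT2, a vegetative actin, had 1046 and 1355 CPM in roots of lit shoots at 7 days, 1255 and 1194 CPM at 4 days, 1006 and 1123 CPM in dark roots at 7 days and 1027 and 1092 CPM at 4 days. All of its libraries with lit shoots but the first 7-day one lay above the dark ones. The other 4 stable references were the polyubiquitin genes UBQ4 and UBQ11, the locus AT2G32170 and PTB1, at ratios of 1.35 to 1.39. Under TMM sizes UBQ4 and UBQ11 went over the limit, at 1.55 and 1.56, and 18.7% of the 31-base words of UBQ11 are shared with other loci.

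Other popular references missed the limit by little or by much. AT2G28390, a SAND protein of vacuolar traffic, had a ratio of 1.41, and PP2AA3, a scaffold subunit of protein phosphatase 2A, had 1.46. PP2AA3 had 76.6 to 84.8 CPM in roots of lit shoots, against 58.1 to 63.4 CPM in dark roots, and the groups did not overlap. Under TMM sizes both fell within the limit, at 1.31 and 1.26. UBQ10 averaged 1789 ± 79.4 and 1625 ± 51.0 CPM with lit shoots at 7 and 4 days, against 2509 ± 76.3 and 1919.7 ± 69.96 CPM in dark roots at 7 and 4 days (SD, n = 2 each). ACT7 had 413 to 610.2 CPM with lit shoots, against 225 to 257 CPM in the dark, a ratio of 2.71.

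The widest spreads among these references belonged to ROC1, TUA4 and AT5G60390. ROC1, a cytosolic cyclophilin, had 196 and 230 CPM in roots of lit shoots at 7 days, 203 and 208 CPM at 4 days, 21.7 and 29.0 CPM in dark roots at 7 days and 37.8 and 43.7 CPM at 4 days. Its log2 fold change for lit shoots over dark was 2.90 ± 0.15 (SE) at 7 days (edgeR adjusted p = 2e-06) and 2.13 ± 0.15 at 4 days (edgeR adjusted p = 2.9e-05). TUA4, an alpha-tubulin, had 461 and 504 CPM in roots of lit shoots at 7 days, 584 and 618 CPM at 4 days, 68.2 and 78.6 CPM in dark roots at 7 days and 142 and 151 CPM at 4 days. Its log2 fold changes were 2.55 ± 0.12 at 7 days (edgeR adjusted p = 1.3e-06) and 1.84 ± 0.11 at 4 days (edgeR adjusted p = 2.1e-05), but 33.4% of its 31-base words are shared with other tubulin-like loci or other sequence, so that its value is uncertain. AT5G60390, an elongation factor 1-alpha gene, had 2144 to 3024 CPM with lit shoots, against 487 to 730 CPM in the dark. Its log2 fold changes were 2.10 ± 0.18 at 7 days (edgeR adjusted p = 1.5e-05) and 1.69 ± 0.17 at 4 days (edgeR adjusted p = 0.0001).

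Of the 34 references, the fit called 11 higher and 8 lower for light at 4 days, beside 57.1% of all loci, and 14 higher and 7 lower for light at 7 days, beside 69.0%. With library totals alone the split at 4 days was 16 higher and 3 lower. For 7 against 4 days in the dark it called 3 higher and 8 lower, beside 31.6% of all loci, and leaving out any dark library changed the count to between 4 and 7. For 7 against 4 days with lit shoots it called 2, both higher, beside 4.23%, and leaving out any library left 0 or 1. These shares are near those of all loci.

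**Figure D4:**
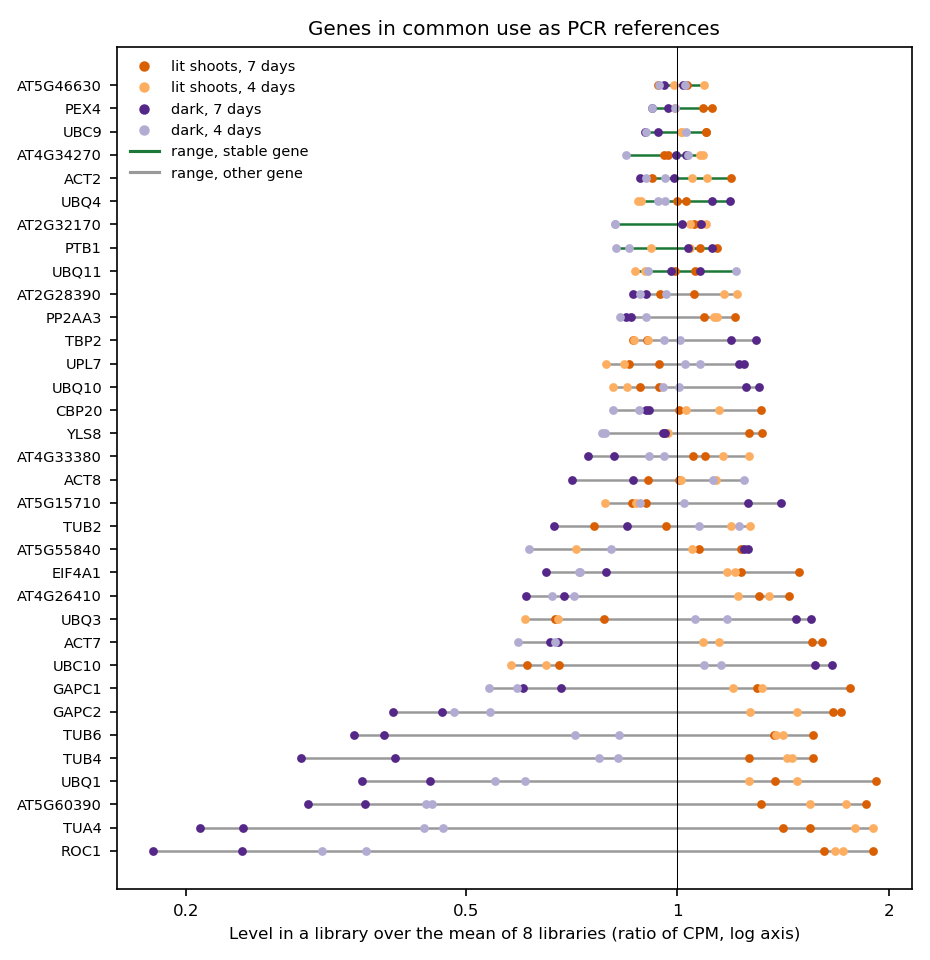
Level in each library divided by the gene's mean over 8 libraries (horizontal log axis) for 34 genes in common use as PCR references, ordered by spread, with lit shoots in orange, dark in purple and the range line green for stable genes. The 9 stable genes span at most 1.4 between their extremes, while ROC1 spans 10.6.

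The same limits were applied to 18 lists of subunits of shared cell machinery, chosen with earlier results of these data known. The lists are partial, and every count below is of the listed genes. The exocyst had the largest stable share, 9 of the 11 genes at 20 CPM or more (81.8%, beside 13.0% of all loci). Under TMM sizes 7 exocyst genes met the limits, and SEC5B, which is not among the 9, was among those 7. Besides EXO70A1 the 9 were SEC3A, SEC5A, SEC6, SEC8, SEC10, SEC15B, EXO84B and EXO84C, with ratios of 1.18 to 1.32. SEC6, a core subunit, had 110 and 113 CPM in roots of lit shoots at 7 days, 110 and 112 CPM at 4 days, 110 and 108 CPM in dark roots at 7 days and 97.9 and 90.8 CPM at 4 days, and the dark 4-day pair was the lowest. SEC8 had 200.1 to 209 CPM in roots of lit shoots and 193 to 254.7 CPM in dark roots, with the dark 7-day pair the highest.

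Phosphatase 2A and coat subunits came next. Of 17 protein phosphatase 2A genes at 20 CPM or more, 8 were stable, among them the catalytic subunit genes AT1G69960, PP2A-3 and PP2A-1 and the regulatory subunit gene ATB' DELTA. PP2A-3 had 89.6 and 109 CPM in roots of lit shoots at 7 days, 103 and 106 CPM at 4 days, 88.5 and 91.2 CPM in dark roots at 7 days and 92.3 and 84.9 CPM at 4 days. Of 20 genes for clathrin, its adaptors and the retromer, which returns receptors from endosomes, 8 were stable, including AT3G08530, AT5G46630, SNX1 and SNX2a. Of 4 listed genes for the COPII coat of vesicles leaving the endoplasmic reticulum, 2 were stable: the SEC24A gene ERMO2, at 234 to 249 CPM with lit shoots and 234 to 276 CPM in the dark, and the SEC13 gene AT3G01340. AT4G32640, annotated as a Sec23/Sec24 transport protein, is not on the list and was also stable, at 171 to 192 CPM with lit shoots and 152 to 173 CPM in the dark. Each of these 3 lists kept its number of stable genes under TMM sizes, but not always the same genes. PP2A-1 and ATB' DELTA went over the limit on that scale, at 1.53 and 1.48.

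The proteasome, signalosome, vacuolar ATPase and Mediator lists had stable shares of 0 to 14.8%, beside 13.0% of all loci. None of the 22 genes for the 20S proteasome core, and none of the 8 for the COP9 signalosome, which removes NEDD8 from cullins, met the limit; under TMM sizes 3 signalosome genes did. The fit called 22 of 24 tested core proteasome genes higher with lit shoots at 4 days and 24 of 24 at 7 days, beside 30.5% and 36.2% of all loci called higher. In the proteasome cap 4 of 27 genes were stable, the ubiquitin receptor RPN13, the RPN2 gene AT1G04810 and the ATPases RPT5A and RPT3. RPN13 had 47.0 and 49.9 CPM in roots of lit shoots at 7 days, 48.9 and 47.2 CPM at 4 days, 44.8 and 52.5 CPM in dark roots at 7 days and 48.0 and 43.5 CPM at 4 days. VAB1 was the 1 stable gene of 22 listed vacuolar ATPase genes and REF4 of 11 listed Mediator genes at 20 CPM or more, and under TMM sizes the lists held 4 and 0. AT1G23230, annotated as a Mediator subunit and not on the list, was stable too, at 74.7 to 79.4 CPM with lit shoots and 63.2 to 80.0 CPM in the dark, with a ratio of 1.24 under TMM sizes; both unlisted genes are named after their values were seen. For light at 7 days the fit called 11 of 13 tested genes of the Mediator list lower, beside 32.8% of all loci.

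Chromatin genes gave 4 of 25 or 16.0%, the remodeller PKL, the histone deacetylase HD1 (HDA19), SWI3B and the Polycomb gene EMF2. PKL had 98.0 and 97.0 CPM in roots of lit shoots at 7 days, 99.0 and 104 CPM at 4 days, 99.9 and 103 CPM in dark roots at 7 days and 87.2 and 104 CPM at 4 days. Against 13.0% of all loci, messenger RNA decay gave 4 of 14 or 28.6% (the decapping genes VCS and DCP1 and the exosome helicases MTR4 and HEN2), the TOR list 2 of 7 or 28.6%, ubiquitin conjugation 6 of 22 or 27.3%, and peroxisome biogenesis 3 of 12 or 25%. Nearer to that share, core ubiquitin ligases gave 3 of 17 or 17.6% (CUL4, UPL6 and DDB1B), nuclear transport 3 of 19 or 15.8%, splicing 4 of 31 or 12.9% and translation initiation 2 of 19 or 10.5% (TIF3H1 and EIF4G). Under TMM sizes translation initiation had 6 stable genes and mRNA decay 2.

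**Figure D5:**
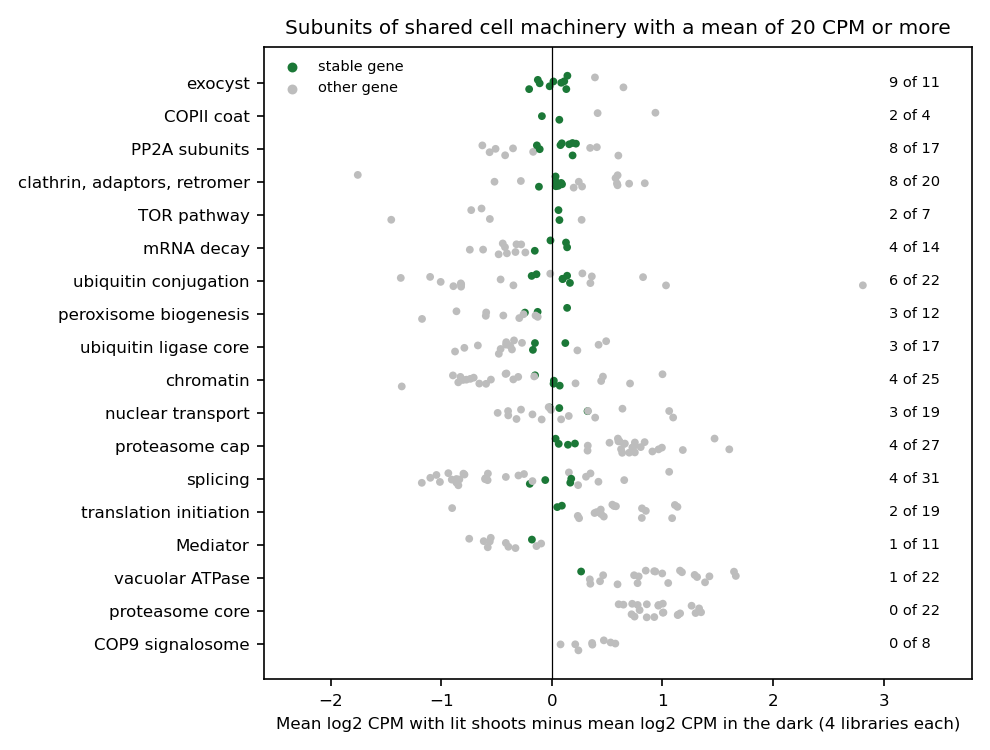
Mean log2 CPM with lit shoots minus mean log2 CPM in the dark (horizontal axis) for subunit genes at 20 CPM or more in 18 partial lists, ordered by stable share, with stable genes in green and the number stable of the number at that level at the right. Stable genes lie near 0 by the rule, and all 22 listed genes of the proteasome core lie above 0.

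Within several complexes a stable gene stood beside a close relative that was not, and the pairs named here were chosen after their values were seen. The clathrin heavy chain AT3G08530 had 899 to 935 CPM with lit shoots and 847 to 906 CPM in the dark, while its relative AT3G11130 (CHC1) had 977 to 1010.4 CPM with lit shoots and 635 to 693 CPM in the dark. Reads shared between the pair could blur this, since 8.52% of the 31-base words of AT3G08530 and 8.15% of those of AT3G11130 occur elsewhere. For the vacuolar ATPase B subunit, VAB1 had 249 to 257 CPM with lit shoots and 201 to 221 CPM in the dark, while VAB3 had 287 to 345 CPM with lit shoots and 95.4 to 145 CPM in the dark. Per kilobase, VAB1 averaged 117 RPKM and VAB3 107 RPKM over the 8 libraries.

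Other relatives also differed in spread on library totals. The nuclear transport GTPase RAN-1 had 146 to 167 CPM with lit shoots and 129 to 166 CPM in the dark, while its neighbour RAN2 had 163 to 190 CPM with lit shoots and 74.98 to 96.97 CPM in the dark. For the Mediator tail subunit MED33, REF4 had 38.7 to 43.0 CPM with lit shoots and 43.2 to 49.95 CPM in the dark, while RFR1 had 67.5 to 77.4 CPM with lit shoots and 82.4 to 139 CPM in the dark. The ubiquitin-conjugating enzyme UBC19 ranged from 37.3 to 47.7 CPM with lit shoots and from 44.5 to 51.7 CPM in the dark. Its relative UBC20 had 35.4 to 42.7 CPM with lit shoots and 2.63 to 11.5 CPM in the dark, a ratio of 16.2, and 11.3% of its 31-base words are shared. In the exocyst, SEC5A and SEC15B were stable and averaged 33.2 and 33.8 RPKM, while SEC5B and SEC15A were not and averaged 9.83 and 7.61 RPKM. For SEC5B this depended on the scale, with a ratio of 1.50 on library totals and 1.32 under TMM sizes. Of its 31-base words 14.1% are shared. SEC15A was over the limit on both scales, at 1.85 and 1.60. SEC3A was stable at 18.1 RPKM, but 30.3% of its 31-base words are shared, and its relative SEC3B averaged 1.91 RPKM.

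Gene structure, which the rule did not use, differed between stable and other genes in these counts. Stable genes had a median of 8 exons in the transcript with the most exons, against 6 for the other loci at 20 CPM or more, and 3.13% against 9.50% had 1 exon. The stable share was 4.68% among genes of 1 exon, 9.32% for 2 to 4, 13.3% for 5 to 9, 17.4% for 10 to 19 and 23.7% for 20 or more. The order was the same among genes of 20 to 50 CPM (4.88% to 21.6%) and of at least 50 CPM (4.39% to 24.4%). Longer genes have more exons, and the median gene length was 3231 bp for stable genes and 2792 bp for the others. Among genes over 2500 and up to 4000 bp the steps were smaller, 10 of 100 genes at 1 exon, 11.6% at 2 to 4, 13.0% at 5 to 9 and 15.7% at 10 to 19. Shared sequence differed little, with 9.15% of stable genes and 10.1% of the others having over 10% of their 31-base words elsewhere, and 4.83% against 5.59% overlapping a locus on the opposite strand over more than 10% of their length.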

How the data were processed

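RNA-seq was made from primary roots, and the authors deposited one table of whole-number read counts per locus, with no normalization. The submitters' processing notes list the build TAIR10 and the tools TopHat2, Subread, Trim Galore, FastQC and CASAVA 1.8.2. The sources used here do not give the strandedness of the counting or the treatment of multiple matches. Near-identical copies and genes overlapping on opposite strands therefore cannot be told apart. Totals ran from 25326045 to 30555290 counts.

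The members and lists described here were chosen with earlier results of these data known. CPM is the count over the library total, and RPKM divides CPM by the kilobases of merged exons. Symbols, positions and sequences came from RefSeq TAIR10.1, which held 32835 of the 33602 loci, with a symbol for 10654. A 31-base word was called shared when it occurs in the exons of another locus. Named genes were the 12 stable genes of smallest ratio and the 6 of highest mean that carry a symbol, 3 on each side of the limit, the 34 references, and per list up to 4 stable genes of smallest ratio and 2 others of largest ratio. 1 named gene is not reported here. Relatives outside this rule and genes of the set within the limit under every scaling were added after their values were seen.

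Tests used edgeR 4.0.16 in R 4.3.3 (TMM factors, filterByExpr with a minimum count of 10 and a minimum total of 15, which kept 20936 loci and all 1181 stable genes, robust glmQLFit, glmQLFTest, 4 residual degrees of freedom), fitted to all 8 libraries with 1 coefficient per group. Benjamini-Hochberg adjustment ran over all tested loci, and calls had an adjusted p below 0.05. The fit was tested on simulated counts and the rule on a few made-up levels. Alternatives were other scalings, limits and filters, DESeq2 1.42.0, a replicate block and leaving out each library.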

Additional observations from a re-analysis of the deposited data

Results flagged for a closer look

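The interaction test of the same fit was looked up only for the references ROC1, TUA4 and AT5G60390, those of largest light effect. Of these, 2 had a light effect that differed between ages, and each is given as a value. For AT5G60390 the difference was 0.41 ± 0.24 (SE, edgeR adjusted p = 0.27). The other references were not looked up in this test, so nothing is said of them. For ROC1 the log2 fold change of lit shoots over dark was larger at 7 days than at 4 days by 0.77 ± 0.20 (SE, edgeR adjusted p = 0.037), with dark roots at 7 days lower than dark roots at 4 days in both libraries of each age. For TUA4 the difference was 0.71 ± 0.15 (edgeR adjusted p = 0.020), again with both 7-day dark libraries below both 4-day ones. The fit called 14.6% of all loci in this interaction. Of the 31-base words of TUA4, 33.4% are shared with other loci.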

How the results depend on the processing

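The number of stable genes was 1181. It was 600 at a limit of 1.3, 1788 at 1.5, 614 at a mean of at least 50 CPM, 2071 when the 4 group means were compared in place of libraries, and 1244 to 1408 with 1 library left out, where fewer libraries make the limit easier to meet. The named stable genes numbered 71 over the parts of the naming rule, and 54 of them kept within the limit under TMM sizes. With a library left out a gene's ratio cannot rise, so that all 71 staying within the limit there was fixed in advance. Calls for 7 against 4 days with lit shoots were the least settled: 886, then 3056 with no filter, 1771 with DESeq2, and 0 to 1111 with a library left out (0 without the first 4-day lit library, 108 without the second, 350 without the first 7-day lit library). Calls for 7 against 4 days in the dark were 6622, and 3487 to 6993 with a library left out (3487 without the first 7-day dark library, 3910 without the second 4-day one). Reference genes called for age in the dark were 11, and 4 to 13 with a library left out. Those called for age with lit shoots were 2, then 1 with the replicate block, 4 with DESeq2 and 0 to 1 with a library left out. Library totals in place of TMM moved the share of higher calls for light at 4 days to 66.2%, against 53.5%, and that of the references to 84.2%, against 57.9%. For age in the dark the references gave 10 higher and 6 lower on library totals. Libraries with the same replicate number correlated at 0.01 to 0.09 in their deviations from group means. The labels do not say whether such libraries share more than a number, and these correlations cannot settle it. The replicate block gave 11887, 14377, 6627 and 965 calls for light at 4 days, light at 7 days, age in the dark and age with lit shoots. The cause of these moves was not tested. The median log2 change of the stable genes for light at 4 days was -0.16 with TMM and 0.04 on library totals, and that of all tested loci was 0.06, and -0.02 with a filter of 1 CPM in 2 libraries. With 2 libraries a group, precision rests on the spread pooled over groups.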

Other observations

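By words in the gene annotation, 27.1% of loci with a WD40 or transducin name at 20 CPM or more were stable (26 of 96, led by LST8-1 and DWA3), beside 13.0% of all loci at that level. Names with ubiquitin gave 23.1% (30 of 130, led by UFD1 and UBP2), peptidases or proteases 21.5% (43 of 200), phosphatases 19.5% (29 of 149), zinc fingers or RING domains 16.4% (50 of 305) and kinases 15.0% (96 of 638, led by RFO1 and MPK19). Transporters gave 13.1% (23 of 175), names of unknown function 11.4% (40 of 350), splicing names 5.88% (2 of 34) and pentatricopeptide names 5.0% (1 of 20). A gene can stand in more than 1 of these classes. The stable genes were spread over the 5 nuclear chromosomes much as the other loci at that level were, with shares of 15.5% (chromosome 2) to 24.7% (chromosome 5), against 15.1% and 23.9%.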
